A study of Homo sapiens with 18 samples.

Results

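The RBM genes encode RNA-binding motif proteins, and 39 of the 20705 gene symbols in the count table fell in the family by name (RBM followed by a number and an optional letter, RBMX, RBMX2, RBMXL1 or RBMS1 to RBMS3). All 39 were tested in every comparison, with no filter on low counts. RBM7, RBM12, RBM14 and RBMXL1 were not analysed here. Most of these proteins bind RNA through RNA recognition motifs, and between them they cover splice site choice, the spliceosome itself, the exon junction complex, the deposition of N6-methyladenosine (m6A) on mRNA, nuclear RNA decay and ribosome assembly. Several, such as RBM5, RBM10 and RBM39, are known as regulators of exon skipping in cancer cells. PRMT5 is an arginine methyltransferase that symmetrically dimethylates the Sm proteins and many RNA-binding proteins, and CDK4/6 phosphorylate RB and related substrates at the start of the cell cycle.

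The libraries came from 2 melanoma lines. Per the study's methods, CHL1 has wild-type BRAF and NRAS with mutant p53, while A375 has mutant BRAF with wild-type p53. CHL1 was grown in DMEM and A375 in RPMI medium, so line and medium cannot be told apart in any comparison between the lines. CHL1 was given DMSO for 72 hours, palbociclib (CDK4/6i, 1 μM) for 72 hours, palbociclib for 6 days or GSK3326595 (PRMT5i, 500 nM) for 72 hours, and A375 was given the same treatments plus DMSO for 6 days. Both drugs were dissolved in DMSO. Each of the 9 groups had 2 libraries, so every range of 2 values below is the whole group, and nothing in the labels says whether the 2 came from independent experiments. CHL1 had no 6-day control, so its 3 treated groups share the 2 libraries of the 72-hour control, and the 2 treated groups of A375 at 72 hours likewise share their control. In every comparison of CHL1 after 6 days of CDK4/6i with DMSO, the drug and the longer time in culture therefore cannot be told apart. The comparisons ask how each inhibitor changed the level of each RBM mRNA in each line.

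Total counts per library ran from 16213475 to 37424081, with a median of 27906170.5. In 2 groups the libraries stood apart by base composition. Each library was set against the median of its line, and the most GC-rich decile of genes compared with the most GC-poor decile by mean log2 level. PRMT5i in CHL1 gave differences of -2.34 and -1.90, and DMSO for 6 days in A375 gave -2.17 and -1.09. In the other libraries it lay between -0.32 and 0.55. Comparisons that rest on those groups are therefore given with and without a correction for GC content. The A375 libraries of 72 hours were labelled as a different library set from the CHL1 and 6-day A375 libraries. Of the melanoma markers, MITF was at 63.8 to 211 CPM (counts scaled for library size), whereas DCT was at 36.3 to 142 CPM in CHL1 and at most 1.79 CPM in A375, S100B was at 3.57 to 128 CPM over all libraries, PMEL did not exceed 3.25 CPM and TYR did not exceed 5.02 CPM. MLANA and SOX10 were not analysed here. Of the 5 markers of other cells, the leukocyte gene PTPRC was higher in CHL1 (7.41 to 16.8 CPM) than in A375 (0.145 to 0.588 CPM), and the keratin gene KRT14 was lower (0.036 to 0.477 against 1.53 to 10.5 CPM). The stromal genes COL1A1 (0.201 to 1.72 against 1.53 to 25 CPM) and PDGFRB (1.94 to 9.71 against 5.87 to 28.9 CPM) had overlapping ranges that reached higher in A375, and KRT5 was at 0 in CHL1 and at most 1.1 CPM in A375. Their part in the results was not tested.

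The RBM genes were well covered. Of the 39, 35 had at least 10 reads in every library and 12 had a mean of at least 100 CPM, while RBM11 and RBM34 had means below 1 CPM (0.86 and 0.221 CPM). RBM34, a nucleolar protein gene, had between 1 and 15 reads per library. By the annotation (GENCODE 44 on GRCh37, not the one used for counting), 48.6% of its exon bases are shared with ARID4B on the same strand. HTSeq by default leaves out reads that fall on exons of more than 1 gene. The part of that overlap in its low count was not tested, and no change is read from RBM34. Together the 39 genes summed to between 2480 and 4130 CPM when scaled by total counts alone. The CPM values of single genes used adjusted library sizes instead, with which the order of the libraries can differ. By total counts, the highest sum was in an A375 library of DMSO for 6 days and the lowest in CDK4/6i libraries of both lines.

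Under edgeR's quasi-likelihood test (adjusted p below 0.05 over all 20705 genes), 2 of the 39 genes changed in CHL1 after 72 hours of CDK4/6i, 1 up and 1 down, while 4.98% of all genes were called in that comparison (2.27% up, 2.72% down). With the GC correction 4 were called, 1 up and 3 down, against a background of 14.7%. After 6 days of CDK4/6i in CHL1, 7 changed, 3 up and 4 down, against 16.6% of all genes (8.83% up, 7.8% down), or 10 with the correction, 3 up and 7 down, against 29.4%. After PRMT5i in CHL1, 26 changed, 18 up and 8 down, where 54% of all genes were called (26.4% up, 27.6% down). In A375, 3 fell and none rose after 72 hours of CDK4/6i, with 13.3% of all genes called (6.22% up, 7.11% down). The correction gave 10 there, 3 up and 7 down (background 25.4%), and the 6 libraries of 72 hours on their own gave 11, all of them falls (background 31%). After 6 days in A375, 15 changed, 2 up and 13 down, with 43.1% of all genes called (21.8% up, 21.3% down). After PRMT5i in A375, 0 of 39 were called by edgeR (2.61% of all genes) or by DESeq2 (4.4%), and 3 had an unadjusted p under 0.05 in edgeR. The 6 libraries of 72 hours alone gave 3 (15.8%), and 15 (29.5%) with a term for the replicate number. Nothing in the labels says that this number marks a batch or day. In the fits of all libraries of a line, the share of RBM genes called was thus close to or below the background in 5 of these 6 comparisons. It was above the background in CHL1 after PRMT5i (66.7% of the members). When only genes with 1 CPM in at least 2 libraries were kept, 25 of the 38 members left were called in that comparison against a background of 70.2%.

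**Figure D1:**
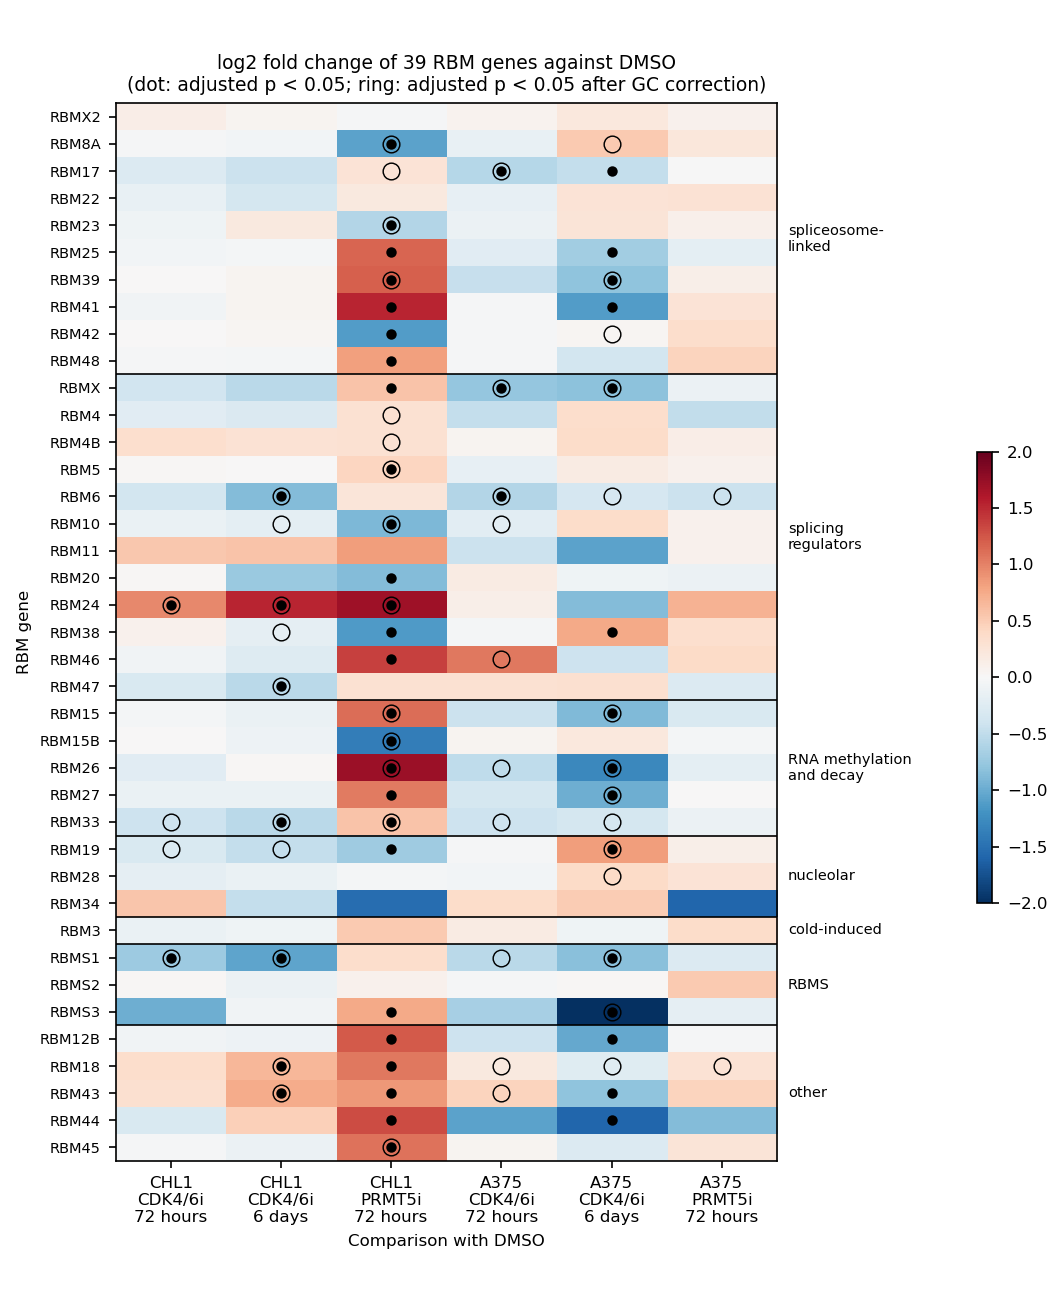
Rows are the 39 RBM genes grouped by role, columns are the 6 comparisons with DMSO, and colour is the log2 fold change from the edgeR fit, limited to 2 in either direction. A dot marks an adjusted p below 0.05 and a ring the same after correction for GC content, so that dots without a ring, all of them in the columns of CHL1 PRMT5i and A375 CDK4/6i for 6 days, are calls that the correction removed.

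RBMS1, RBM6, RBM33 and RBMX were called as lower after CDK4/6i in at least 1 comparison with DMSO each, and RBM24 as higher in CHL1. For RBM33 this was CHL1 at 6 days, which has no control of the same time. These 5 genes were picked from the members called under this cell cycle drug, and promoters were searched for E2F and cell cycle homology region letters. Other members called under it, such as RBM17, RBM18, RBM43 and RBM47, are not shown. A link between promoter sequence and the drug response was not tested. The sequences that lie before the transcription starts of the 5 genes are shown here. They are the 250 bases upstream of the start in RefSeq (GRCh38.p14), 5′ to 3′ on the strand of the gene, at chr2:160493808-160494057 (minus strand) for RBMS1, chr3:49939900-49940149 (plus) for RBM6, chr7:155644411-155644660 (plus) for RBM33, chrX:136880726-136880975 (minus) for RBMX and chr6:17281814-17282063 (plus) for RBM24. Capitals mark a match, on either strand, to the cell cycle homology region letters TTTGAA.
RBMS1: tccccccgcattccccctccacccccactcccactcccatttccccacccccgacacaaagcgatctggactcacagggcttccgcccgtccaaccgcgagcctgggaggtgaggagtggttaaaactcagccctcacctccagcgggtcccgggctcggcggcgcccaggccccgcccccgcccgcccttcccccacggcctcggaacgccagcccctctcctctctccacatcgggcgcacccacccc
RBM6: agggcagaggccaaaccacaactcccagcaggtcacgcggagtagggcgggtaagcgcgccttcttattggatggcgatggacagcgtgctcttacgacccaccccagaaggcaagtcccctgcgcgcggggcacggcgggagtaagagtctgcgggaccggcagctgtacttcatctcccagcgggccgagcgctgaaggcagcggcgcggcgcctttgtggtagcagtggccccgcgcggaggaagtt
RBM33: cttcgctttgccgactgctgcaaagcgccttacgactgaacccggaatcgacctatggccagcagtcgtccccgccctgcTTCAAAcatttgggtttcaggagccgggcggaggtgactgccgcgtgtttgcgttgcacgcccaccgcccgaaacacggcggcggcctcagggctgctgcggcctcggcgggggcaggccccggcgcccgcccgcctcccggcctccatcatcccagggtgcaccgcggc
RBMX: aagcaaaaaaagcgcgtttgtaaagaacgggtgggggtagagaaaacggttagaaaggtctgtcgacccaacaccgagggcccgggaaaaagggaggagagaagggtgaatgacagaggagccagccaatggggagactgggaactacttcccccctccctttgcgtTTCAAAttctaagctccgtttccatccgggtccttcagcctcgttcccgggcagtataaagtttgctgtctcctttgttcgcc
RBM24: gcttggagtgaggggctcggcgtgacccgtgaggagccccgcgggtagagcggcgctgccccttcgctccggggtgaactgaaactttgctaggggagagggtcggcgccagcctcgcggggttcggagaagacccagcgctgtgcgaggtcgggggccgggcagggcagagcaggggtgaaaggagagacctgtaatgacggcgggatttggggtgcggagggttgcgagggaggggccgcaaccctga

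The letters TTTGAA occurred in RBM33, starting 170 bases before the start, and in RBMX, starting 83 bases before it. They did not occur in the windows of RBMS1, RBM6 and RBM24. Of the 35 RBM genes with an entry in the table, 7 held these letters (RBM3, RBM10, RBM33, RBM41, RBM46, RBMS2 and RBMX), as did 13.6% of all 27305 promoters. Searched in the same way, the E2F letters TTTGGCGC or TTTCCCGC were found in RBM44 alone among the 35, and in 1.96% of all promoters. Such a match describes the letters and not a bound site.

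RBMS1, which encodes a single-strand nucleic acid-binding protein that also binds mRNA, fell in 3 of the 4 CDK4/6i comparisons. In CHL1 it stood at 132 and 158 CPM in DMSO, at 79 and 96.2 CPM after 72 hours and at 69 and 68.9 CPM after 6 days. Both treated groups lay wholly below the control, with log2 fold changes of -0.73 ± 0.16 (SE, adjusted p = 0.0264, edgeR) and -1.06 ± 0.16 (adjusted p = 0.00194, edgeR). The 72-hour call was lost when any 1 of its 4 libraries was left out (log2 fold changes of -0.88 to -0.60), while the 6-day call passed in all 4 such fits. In A375 it was at 116 and 118 CPM in DMSO and at 83.4 and 83.7 CPM after 72 hours of CDK4/6i, which did not overlap but missed the threshold in the fit of all A375 libraries (log2 fold change -0.54 ± 0.18, adjusted p = 0.0613, edgeR). It was called, at the same fold change, with only the compared groups or the 6 libraries of 72 hours, and with the GC correction (-0.41). After 6 days it was at 72.7 and 90.6 CPM against 167 and 123 CPM in the control of the same time (log2 fold change -0.83 ± 0.18, adjusted p = 0.00211, edgeR). That fall was smaller, but still called, with the GC correction (-0.39) and with the 72-hour control in place of the 6-day control (-0.57).

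RBM6, a relative of the splicing regulators RBM5 and RBM10, fell in CHL1 at 6 days and in A375 at 72 hours. Its CHL1 values were 145 and 169 CPM in DMSO, 115 and 128 CPM at 72 hours and 84.8 and 86.7 CPM at 6 days. The 6-day difference was -0.86 ± 0.15 (adjusted p = 0.00368, edgeR), and it was no longer called without the second control library (-0.74). The 72-hour value in CHL1 was -0.37 ± 0.15, with an adjusted p of 0.19 in edgeR. In A375 it went from 149 and 136 CPM to 95.3 and 103 CPM in 72 hours, a log2 fold change of -0.58 ± 0.17 (adjusted p = 0.0382, edgeR) that was not called when any 1 of the 4 libraries was left out. At 6 days in A375 its 2 treated libraries, at 128 and 143 CPM, lay below both controls, at 189 and 152 CPM, without passing the test (-0.34 ± 0.17, adjusted p = 0.128, edgeR).

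RBMX, the gene of the splicing protein hnRNP G, fell in A375 at both times. It stood at 283 and 337 CPM in the 72-hour control and at 191 and 187 CPM after 72 hours of CDK4/6i (log2 fold change -0.77 ± 0.19, adjusted p = 0.0139, edgeR). At 6 days it was at 204 and 171 CPM against 378 and 285 CPM (-0.82 ± 0.19, adjusted p = 0.00315, edgeR). With the GC correction the 6-day value was -0.74, and against the 72-hour control it was -0.77, both called. The 72-hour call held in 1 of the 4 fits that left out a library, the one without the first control library. In CHL1, RBMX was at 387 and 338 CPM in DMSO, 288 and 268 CPM at 72 hours and 265 and 227 CPM at 6 days, again without overlap and without passing the test in the fit of all CHL1 libraries (adjusted p of 0.256 and 0.0592, edgeR). Fitted on the compared groups alone, it was called at both times (log2 fold changes of -0.38 and -0.56).

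RBM33, a cofactor of m6A demethylation, was at 188 and 185 CPM in the CHL1 control, at 140 and 141 CPM after 72 hours and at 122 and 133 CPM after 6 days of CDK4/6i. Its fall at 6 days passed the test (-0.54 ± 0.14, adjusted p = 0.0231, edgeR), although in only 1 of the 4 fits without a library, the one without the second CDK4/6i library. In A375 its values after CDK4/6i were 101 and 102 CPM at 72 hours, against 135 and 125 CPM, and 114 and 117 CPM at 6 days, against 160 and 134 CPM. Neither A375 difference passed (adjusted p of 0.118 and 0.103, edgeR), and both did so with the GC correction, at -0.48 and -0.61.

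RBM17, whose product SPF45 takes part in 3′ splice site recognition, fell in A375 from 40.4 and 40 CPM to 26.9 and 29.6 CPM at 72 hours (-0.57 ± 0.17, adjusted p = 0.0382, edgeR). It was at 33.1 and 31.2 CPM against 45.6 and 43 CPM at 6 days (-0.47 ± 0.17, adjusted p = 0.0353, edgeR), where it had a log2 fold change of -0.04 and no call with the GC correction. The 72-hour call was not kept in any fit without 1 of the 4 libraries. RBM47, known for epithelial splicing and as a cofactor of RNA editing, fell in CHL1 at 6 days, from 141 and 159 CPM to 115 and 88.8 CPM (-0.54 ± 0.17, adjusted p = 0.0432, edgeR), a call that held in 1 of 4 such fits, without the first CDK4/6i library. In A375, where it is lower, RBM47 was at 34 and 33 CPM after 72 hours of CDK4/6i and at 25.3 and 26.7 CPM in DMSO, a difference that did not pass (0.31 ± 0.18, adjusted p = 0.289, edgeR). RBMS3 in CHL1 stood at 16.9 and 18.5 CPM in DMSO and at 9.11 and 8.84 CPM after 72 hours (-0.98 ± 0.28, adjusted p = 0.0675, edgeR), and its 6-day libraries, at 10.6 and 23.2 CPM, lay on both sides of the control.

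**Figure D2:**
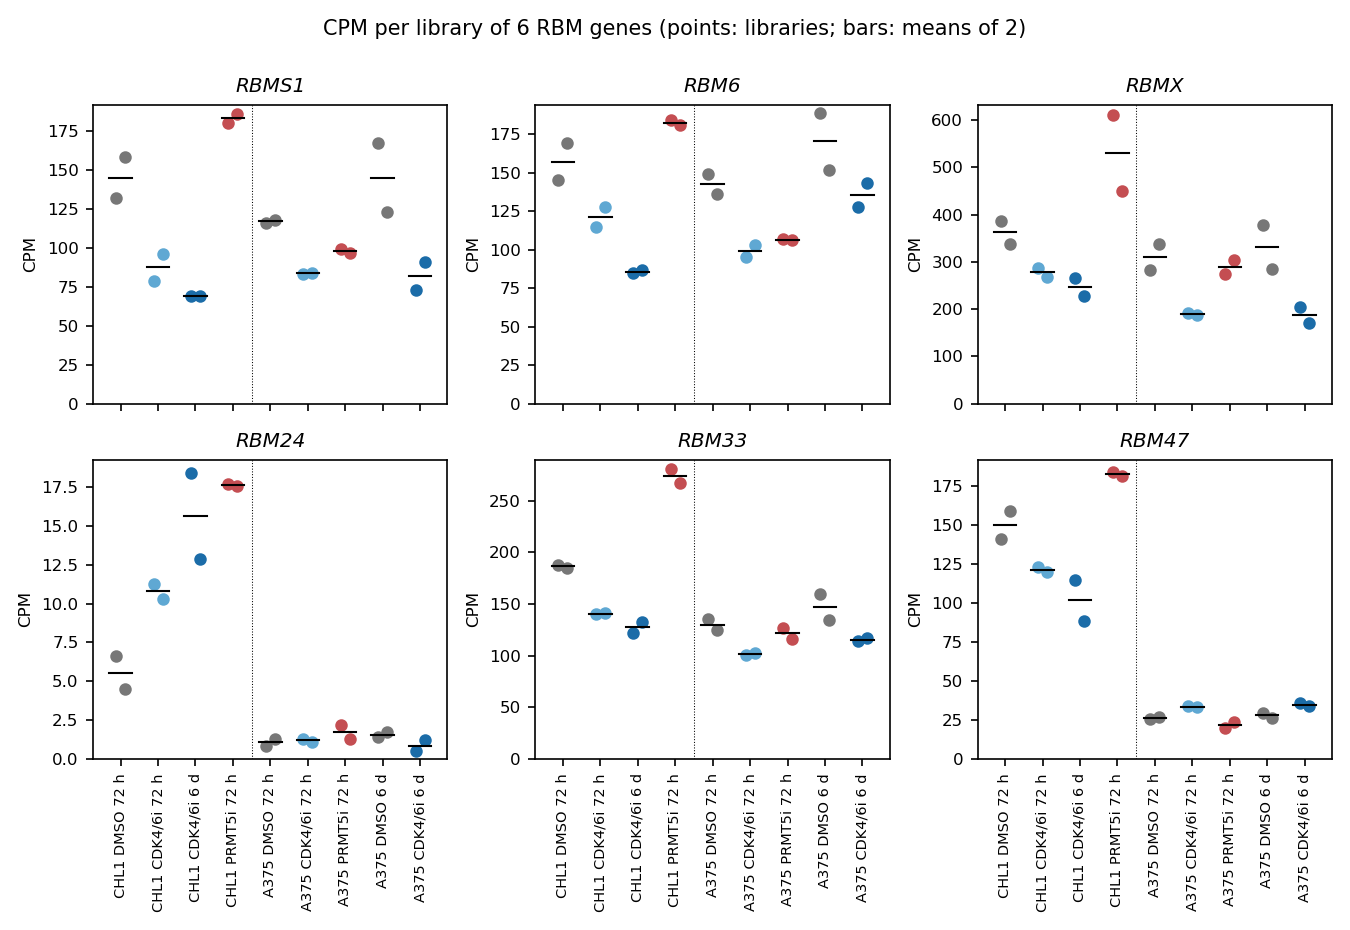
CPM of RBMS1, RBM6, RBMX, RBM24, RBM33 and RBM47 in each library, with 1 point per library and a bar at the mean of the 2 libraries of a group. The CDK4/6i points of RBMS1, RBM6, RBMX and RBM33 lie below the DMSO points they are compared with in both lines and at both times (for RBMS1 in CHL1, 69 to 96.2 CPM against 132 and 158 CPM). RBM24 rises from 4.47 and 6.63 CPM in the CHL1 control, and RBM47 is several fold lower in A375 than in CHL1.

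Of the members that rose under CDK4/6i, RBM24 had the largest change. RBM24 is a regulator of muscle splicing and mRNA stability, and it rose in all 3 treated groups of CHL1. It was at 6.63 and 4.47 CPM in DMSO, at 11.3 and 10.3 CPM after 72 hours of CDK4/6i, at 18.4 and 12.9 CPM after 6 days and at 17.7 and 17.6 CPM after PRMT5i. The log2 fold changes were 0.96 ± 0.24 (adjusted p = 0.0435), 1.52 ± 0.24 (adjusted p = 0.00229) and 1.69 ± 0.24 (adjusted p = 0.000203) in edgeR, all against the same 2 control libraries, and each stayed called with the GC correction, at 1.06, 1.63 and 1.28. The 72-hour CDK4/6i call was lost without any 1 of its 4 libraries (0.70 to 1.27). RBM24 was far lower in A375, between 0.519 and 2.14 CPM in every group, and was not called there in any of the 3 comparisons. RBM38, its close relative and a known p53 target that stabilises or represses p53-pathway mRNAs, was at 80.8 and 77.8 CPM in the CHL1 control and at 82.3, 85, 73.3 and 65.3 CPM in the 4 CHL1 libraries of CDK4/6i, with no call at either time.

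RBM18 and RBM43, which encode small proteins with an RNA recognition motif, rose in CHL1 after 6 days of CDK4/6i. RBM18 was at 38 and 33.5 CPM in DMSO and at 57.5 and 54.8 CPM at 6 days (0.66 ± 0.16, adjusted p = 0.0147, edgeR), with 46.7 and 44.3 CPM at 72 hours. RBM43 was at 12.2 and 9.08 CPM in DMSO and at 20.5 and 14.5 CPM at 6 days (0.74 ± 0.22, adjusted p = 0.0424, edgeR). Both calls held only in the fit without the second CDK4/6i library among the 4 that leave out 1 library. Between 72 hours and 6 days of CDK4/6i in CHL1 no member was called by edgeR (0.0145% of all genes) or DESeq2 (0.304%), and 5 had an unadjusted p under 0.05 in edgeR. The larger number of calls at 6 days is therefore not a difference between the times that passed a test. Likewise, 0 members differed in their 72-hour CDK4/6i response between CHL1 and A375 in edgeR (0.642% of all genes) or DESeq2 (1.78%). In edgeR 1 had an unadjusted p under 0.05.

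The 6-day CDK4/6i comparison in A375 gave 13 falls and 2 rises, and it rests on the 6-day control, 1 of the 2 groups with a GC trend. Among the larger falls were those of RBMS3, which encodes a relative of RBMS1, at 136 and 164 CPM against 823 and 383 CPM (4.01-fold lower, SE 0.27 on the log2 scale, adjusted p = 5.77e-05, edgeR), of RBM26 in the poly(A) tail exosome targeting complex, at 162 and 159 CPM against 485 and 301 CPM (-1.29 ± 0.20, adjusted p = 0.000184, edgeR), and of RBM41 in the minor spliceosome, at 33.1 and 33.4 CPM against 92.6 and 51.1 CPM (-1.11 ± 0.22, adjusted p = 0.0012, edgeR). In each of them the 2 control libraries differed by more than the treated libraries did. RBM12B (-1.02), RBM27 (-0.97), RBM15 (-0.89), RBMS1, RBMX, RBM39 (-0.81), RBM43 (-0.80), RBM25 (-0.69) and RBM17 fell too, as did the low RBM44 (-1.59). RBM19, which serves ribosome biogenesis, rose from 40.1 and 63.2 CPM to 91.5 and 94.5 CPM (0.84 ± 0.21, adjusted p = 0.00438, edgeR), and RBM38 rose from 7.99 and 13.1 CPM to 17.4 and 18.4 CPM (0.75 ± 0.23, adjusted p = 0.0178, edgeR). Leaving out a library ended the calls of RBM17, RBM38, RBM43 and RBM44 in 1 or more of the 4 such fits. The median log2 fold change was -0.28 over the members and 0.10 over all genes.

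The members that were called in that comparison followed base composition. The 13 that fell had a median transcript GC content of 39.7%, the 2 that rose had 60%, and the median of all 39 was 44.8%. Across the 39 genes, which share the same 4 libraries and are not replicates, Spearman's rho between log2 fold change and GC content was 0.70, beside 0.59 across the 13523 genes with a GC value and a mean of at least 1 CPM. After the GC correction rho over the members was -0.05, 14 members were called (4 up, 10 down, background 38.3%), and 8 of the 15 first calls were among them. RBM15 (-1.43), RBMS3 (-0.98), RBM26 (-0.78), RBMX, RBM39 (-0.44), RBMS1 and RBM27 (-0.33) remained lower and RBM19 (0.33) remained higher, while RBM8A (0.77), RBM18 (0.49) and RBM28 (0.36) were called as higher and RBM33, RBM6 and RBM42 (-0.45) as lower. Against the 72-hour control in place of the 6-day control, which changes the library set as well, 9 members were called (2 up, 7 down, background 31.2%), and only RBMS1 and RBMX of the first 15 were among them. RBMS3 then had a value of -0.32, RBM26 of 0.10 and RBM41 of 0.48. Without the second control library 27 members were called, 9 up and 18 down, and 55.5% of all genes.

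In CHL1 after PRMT5i, the counts by role stand beside the 54% of all genes that were called (70.2% of those that passed the 1 CPM filter), and nothing particular to a role is read from them. Of the 10 spliceosome-linked genes, 4 rose and 3 fell. RBM39, a U2AF-related splicing factor, rose from 398 and 377 CPM to 848 and 904 CPM (1.20 ± 0.16, adjusted p = 0.000148, edgeR), and RBM41 from 53.5 and 56.8 CPM to 137 and 175 CPM (1.52 ± 0.19, adjusted p = 0.000118, edgeR). RBM25, a U1-associated factor (1.16), and RBM48 of the minor spliceosome (0.82) rose as well. RBM8A, which encodes the exon junction protein Y14, fell from 22.4 and 17.9 CPM to 9.86 and 9 CPM (-1.07 ± 0.18, adjusted p = 0.000465, edgeR). RBM42, a component linked to the tri-snRNP, fell from 44.6 and 36.6 CPM to 13.2 and 23.7 CPM (-1.12 ± 0.24, adjusted p = 0.00184, edgeR), and RBM23, the close relative of RBM39, fell by 0.59 on the log2 scale. RBM17, RBM22 and RBMX2 were not called.

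Of the 12 splicing regulators in CHL1 after PRMT5i, 4 rose and 3 fell. Besides RBM24, these were RBM46 (from 5.25 and 6.56 CPM to 10.5 and 19.4 CPM, log2 fold change 1.36 ± 0.36), RBMX (0.57) and RBM5 (0.43), and the falls were RBM38 (from 80.8 and 77.8 CPM to 23.2 and 48.4 CPM, -1.13 ± 0.26), RBM10 (from 66.3 and 60.2 CPM to 27.4 and 39.6 CPM, -0.90 ± 0.19) and RBM20 (-0.86). All 5 genes of RNA methylation and decay changed, beside 54% of all genes. The m6A writer adaptor gene RBM15 rose from 120 and 109 CPM to 230 and 260 CPM (1.12 ± 0.20, adjusted p = 0.000625, edgeR), and its paralogue RBM15B fell from 75.5 and 66.3 CPM to 22.3 and 31.4 CPM (-1.38 ± 0.20, adjusted p = 0.000235, edgeR). RBM26 rose from 157 and 143 CPM to 449 and 517 CPM (1.71 ± 0.17, adjusted p = 8.22e-05, edgeR), its paralogue RBM27 rose by 1.04 and RBM33 by 0.57. RBM19 fell (-0.71), RBMS3 rose (0.75), and the 5 genes without a settled role, RBM12B (1.23), RBM18 (1.06), RBM43 (0.87), RBM44 (1.31) and RBM45 (1.09), all rose. Of the 26 calls, those of RBM5, RBM20, RBM23, RBM43, RBM46, RBMS3 and RBMX were lost in at least 1 of the 4 fits that leave out a library.

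Here too the direction followed base composition. The 18 members that rose had a median GC content of 40.3% and the 8 that fell had 56.4%, and Spearman's rho between log2 fold change and GC content was -0.68 across the 39 members and -0.82 across all genes. The corrected values had a rho of 0.26 over the members, and 14 members were called, 10 up and 4 down, with 28.8% of all genes called. Of the 26 first calls, 10 kept their direction and their call. These were RBM15 (1.88), RBM24, RBM26 (0.94), RBM33 (0.81), RBM45 (0.64), RBM5 (0.61) and RBM39 (0.60), which were higher, and RBM8A (-1.54), RBM23 (-0.65) and RBM15B (-0.48), which were lower. RBM10 turned from -0.90 to 0.32 and was called in both. RBM41 (0.31), RBM46 (0.18), RBM42 (0.23) and RBM38 (0.14) were no longer called, and RBM4 (1.12), RBM4B (0.61) and RBM17 (-0.43) were called with the correction alone.

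**Figure D3:**
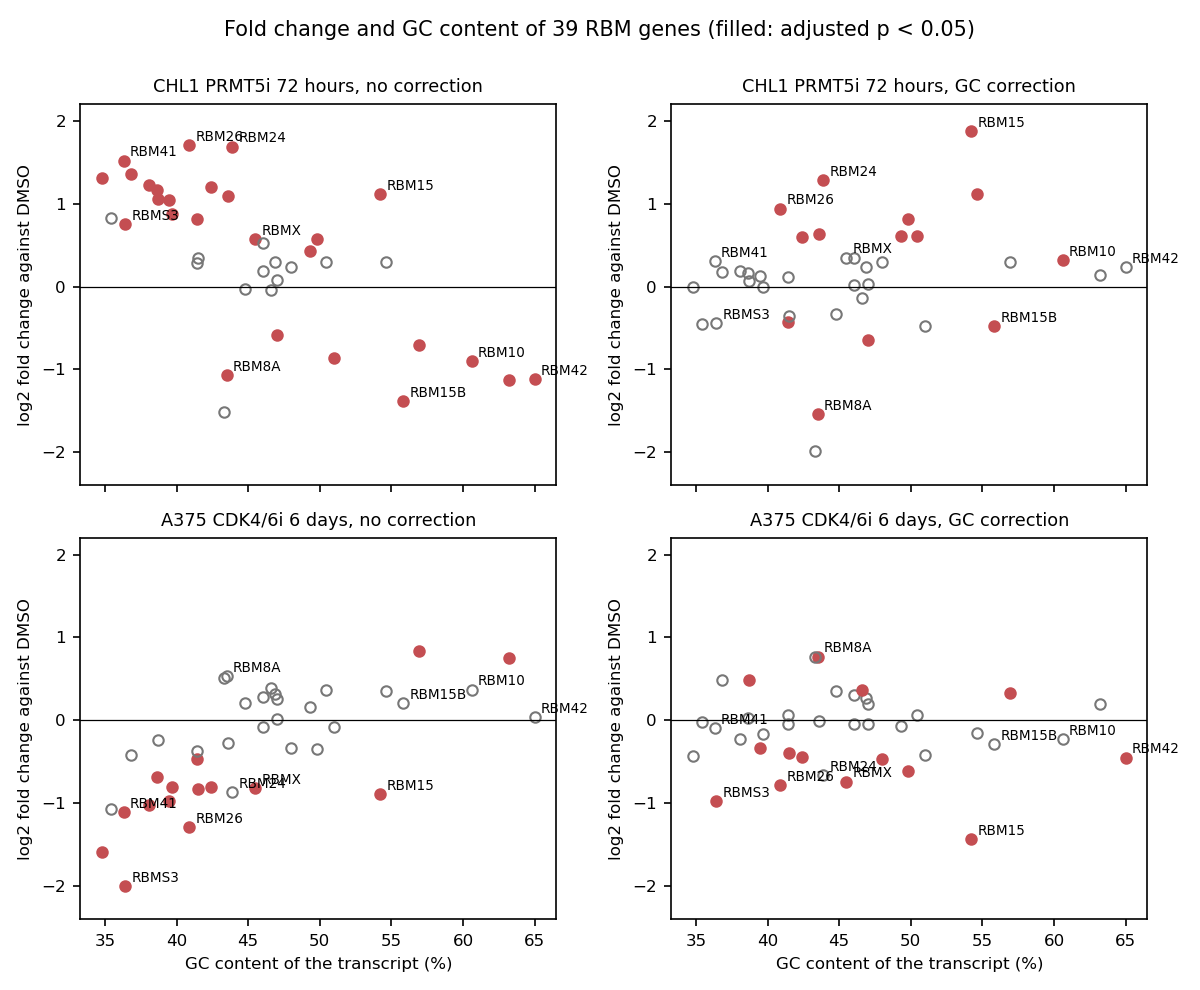
The log2 fold change of each of the 39 RBM genes against the GC content of its transcript in percent, for CHL1 PRMT5i (top) and A375 CDK4/6i for 6 days (bottom), without (left) and with (right) the GC correction, with filled points for an adjusted p below 0.05. The slope runs down in the first comparison (rho -0.68) and up in the second (rho 0.70) and is weak in both corrected panels (0.26 and -0.05), where RBM15 and RBM8A stand at opposite sides of 0.

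The levels of 6 of these genes are set beside those in the other group with a GC trend, which received no inhibitor. RBM15 was at 146 and 99.5 CPM in A375 after 6 days of DMSO and at 84.8 and 89.7 CPM after 72 hours of DMSO. RBM26 was at 485 and 301 CPM against 144 and 145 CPM, and RBM39 at 542 and 389 CPM against 316 and 324 CPM. RBM8A was at 15.6 and 25.3 CPM against 41 and 55.9 CPM, RBM15B at 45.5 and 60 CPM against 108 and 120 CPM, and RBM10 at 56.1 and 74.2 CPM against 104 and 115 CPM. For all 6 genes the 6-day DMSO libraries lay apart from the 72-hour DMSO libraries on the side on which CHL1 after PRMT5i lay from its own control. These 6 are a selection from the 26 calls, and other called members did not all do so. RBM20, which fell in CHL1, was higher in A375 after 6 days of DMSO (23.9 and 18.8 CPM against 11.1 and 11.1 CPM). The values of RBMX and RBM5 overlapped. The 2 DMSO groups of A375 also differ in time and library set. Corrected for GC content, A375 after 6 days of CDK4/6i differed from the 6-day control in RBM15, RBM26 and RBM39 (lower after CDK4/6i) and in RBM8A (higher). In CHL1 the PRMT5i treatment and the GC trend of its libraries cannot be told apart.

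**Figure D4:**
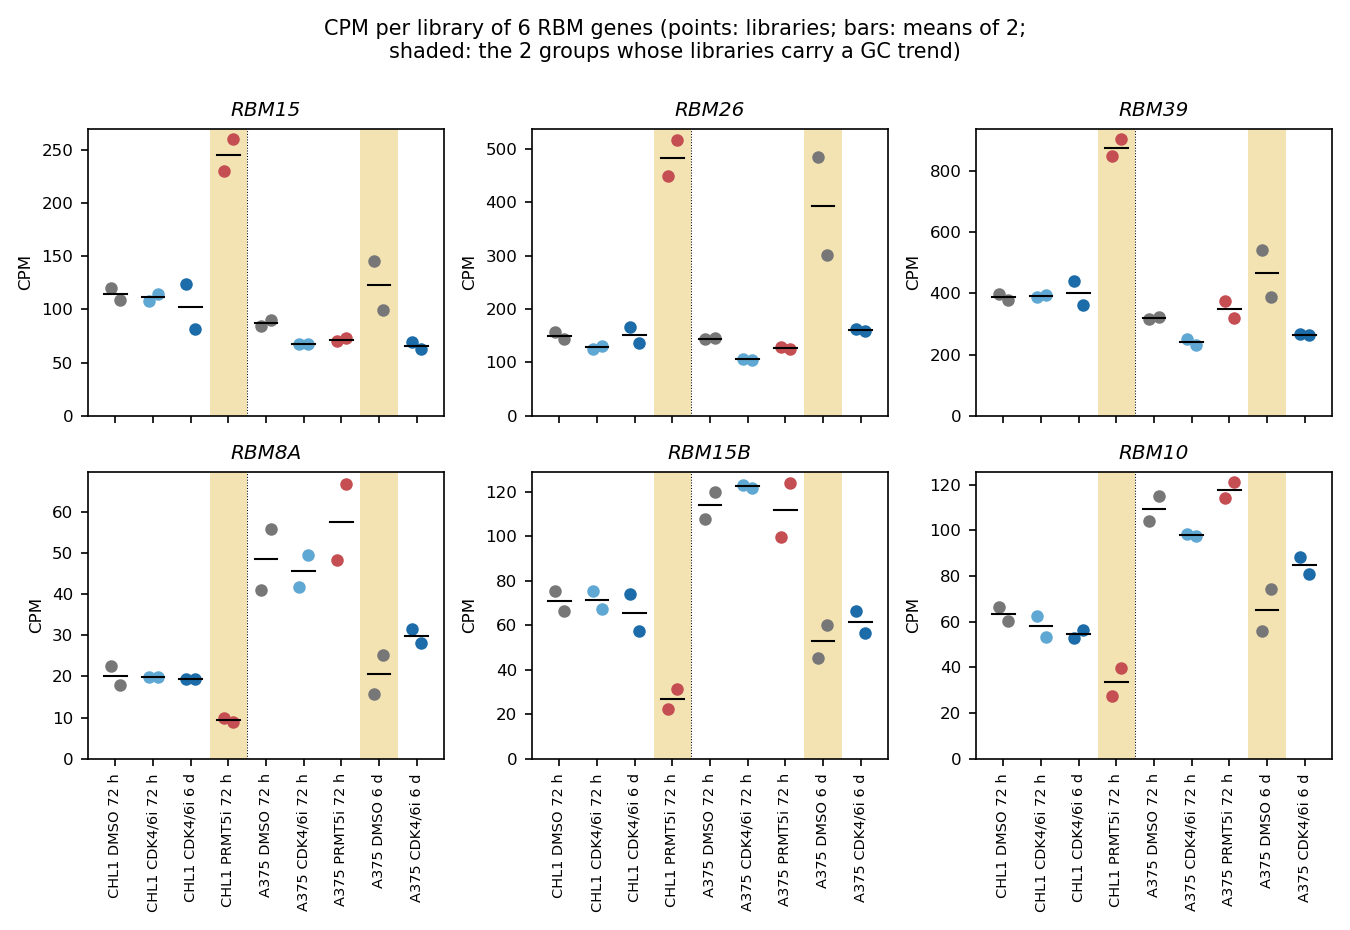
CPM of RBM15, RBM26, RBM39, RBM8A, RBM15B and RBM10 in each library, with 1 point per library, a bar at the mean of 2, and shading over the CHL1 PRMT5i group and the A375 group of DMSO for 6 days. The shaded groups are the highest of their line for RBM15, RBM26 and RBM39 (RBM26 at 449 and 517 CPM in CHL1 and at 485 and 301 CPM in A375) and the lowest of their line by mean for RBM8A, RBM15B and RBM10.

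In A375, the PRMT5i libraries had smaller differences between GC-rich and GC-poor genes (0.21 and 0.29, against 0.07 and 0.03 in DMSO). The log2 fold changes of the members after PRMT5i had a median of 0.09 there (0.00 over all genes). RBM15 was at 69.9 and 73.3 CPM against 84.8 and 89.7 CPM in DMSO (-0.30 ± 0.18), RBM26 at 129 and 126 CPM against 144 and 145 CPM (-0.20 ± 0.20), RBM39 overlapped its control (0.11 ± 0.19) and RBM8A at 48.3 and 66.8 CPM against 41 and 55.9 CPM (0.23 ± 0.24). None of these passed, and of the 4 genes RBM15 and RBM26 had treated libraries below both controls. RBMS2 (115 and 108 CPM against 80.3 and 72.6 CPM, log2 fold change 0.53 ± 0.19, adjusted p = 0.17, edgeR) and RBM6 (107 and 106 CPM against 149 and 136 CPM, -0.43 ± 0.17, adjusted p = 0.226, edgeR) did not pass either. Treated libraries beyond both controls were not particular to the genes named here. RBM22 (55.4 and 62.7 CPM against 46.2 and 49.5 CPM) and RBM47 (20 and 23.6 CPM against 25.3 and 26.7 CPM) were among other members that had them. With the GC correction RBM6 (-0.43) and RBM18 (0.38) were called, while 9.05% of all genes were. In the fit of the 6 A375 libraries of 72 hours alone, 3 members were called, where 15.8% of all genes were.

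The PRMT5i response differed between CHL1 and A375 for 19 of the 39 members in the fit of all 18 libraries, 12 higher and 7 lower in CHL1, while 40.9% of all genes differed (18.8% higher, 22.1% lower). After GC correction 7 members differed (5 and 2, background 21%). RBM15 (2.19), RBM4 (1.63), RBM26 (1.09), RBM33 (0.91) and RBM6 (0.69) had the higher response in CHL1, and RBM8A (-1.85) and RBM23 (-0.77) the lower. Set against CDK4/6i at 72 hours, PRMT5i gave other levels of 31 members in CHL1 (23 higher and 8 lower after PRMT5i, background 57.8%, with 28.4% higher and 29.4% lower), or 20 with the GC correction (14 and 6, background 42%). In A375 the same contrast called 0 members in edgeR (5.45% of all genes) and 3 in DESeq2 (7.84%), with 7 at an unadjusted p under 0.05 in edgeR. It called 8 members with the GC correction, 7 of them higher after PRMT5i (background 16.1%). With the 6 libraries of 72 hours alone it called 14, 13 of them higher after PRMT5i, where 22.1% of all genes were called. A term for the replicate number in these 6 libraries gave 21, 20 of them higher after PRMT5i, where 34.6% of all genes were called.

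Between the DMSO libraries of 72 hours, 16 members differed between CHL1 and A375, 9 higher and 7 lower in CHL1, where 58.9% of all genes differed (29.3% higher, 29.6% lower). The line, its culture medium and the library set cannot be told apart here. RBM47 was at 141 and 159 CPM in CHL1 and at 25.3 and 26.7 CPM in A375 (log2 difference 2.53 ± 0.17, adjusted p = 2.99e-10, edgeR), and RBM38 at 80.8 and 77.8 CPM against 17.3 and 20.2 CPM (2.08 ± 0.27, adjusted p = 2.21e-06, edgeR). RBM46, a germ cell gene, was at 5.25 and 6.56 CPM against 0.386 and 0.44 CPM (3.82 ± 0.45, adjusted p = 7.48e-07, edgeR), and RBM24 at 6.63 and 4.47 CPM against 0.82 and 1.27 CPM (2.40 ± 0.36, adjusted p = 1.52e-05, edgeR). In the other direction, RBMS3 was at 16.9 and 18.5 CPM in CHL1 and at 196 and 167 CPM in A375 (-3.36 ± 0.32, adjusted p = 5.32e-08, edgeR). RBM23 was at 14.5 and 11.1 CPM against 61.3 and 64 CPM (-2.29 ± 0.19, adjusted p = 8.93e-09, edgeR), RBM8A at 22.4 and 17.9 CPM against 41 and 55.9 CPM (-1.27 ± 0.23) and RBMS2 at 35.2 and 36.6 CPM against 80.3 and 72.6 CPM (-1.09 ± 0.17). RBM41 (1.25), RBM19 (0.59), RBM33 (0.52), RBM48 (0.51) and RBM25 (0.43) were higher in CHL1, and RBM20 (-0.81), RBM10 (-0.79) and RBM15B (-0.68) were lower.

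The A375 control of 6 days belongs to the library set of CHL1. It also differs from the CHL1 control in time, and its libraries carry a GC trend (-2.17 and -1.09). What changed with this control can therefore not be assigned to the library set. With it, 17 members differed (7 higher and 10 lower in CHL1, background 61%), and 9 of the 16 kept their call and direction. RBM47 (2.43), RBM38 (2.91), RBM24 (1.84), RBMS3 (-5.09), RBM23 (-1.53) and RBM20 (-1.75) were among them. RBM8A was then at -0.02 and RBM10 at -0.04, and RBM46 was at 0.78 and not called, since its level in A375 was 3.88 and 2.97 CPM after 6 days of DMSO. RBM46 also stood at 2.68 and 2.43 CPM after 6 days of CDK4/6i and below 1 CPM in each of the 6 A375 libraries of 72 hours. The GC-corrected 72-hour contrast called 20 members, 8 higher and 12 lower (background 66.8%), with 14 of the 16 kept.

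**Figure D5:**
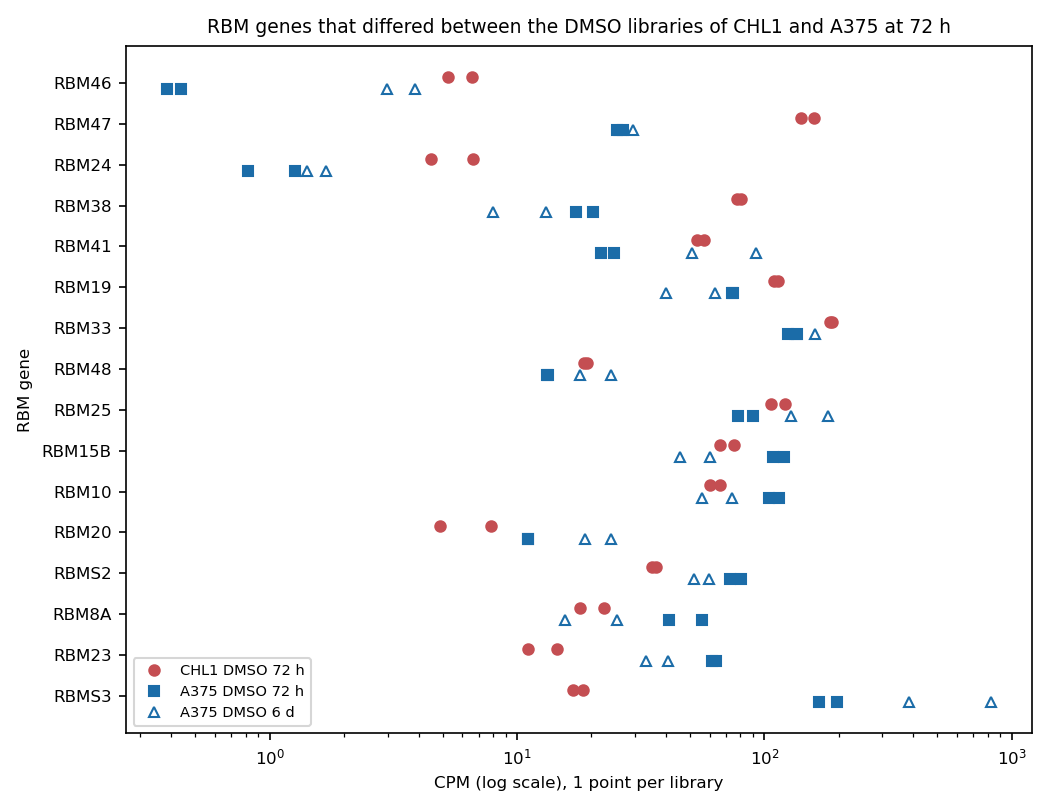
CPM on a log axis of the 16 RBM genes that differed between CHL1 and A375 in DMSO for 72 hours, 1 point per library, with A375 in DMSO for 6 days as open triangles. RBM47, RBM24 and RBM38 (CHL1 higher) and RBMS3 and RBM23 (CHL1 lower) keep their side against both A375 controls, while the triangles of RBM41, RBM25, RBM48, RBM15B, RBM10 and RBM8A reach or cross the CHL1 points.

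The remaining paralogues are given side by side. RBM5 stayed between 40.4 and 80.7 CPM in all libraries, and its one call was the rise of 0.43 after PRMT5i in CHL1, where RBM10 fell and RBM6 was not called (0.24 ± 0.15). RBM5 and RBM6 are neighbours on the plus strand (GRCh37, chr3:49977440-50137478 for RBM6 and chr3:50126352-50156454 for RBM5) and share 456 exon bases. RBM4 and RBM4B, at 12.7 to 28.7 and 13.5 to 23.6 CPM, were not called in any of the 6 comparisons with DMSO without the GC correction. They overlap in 590 exon bases on opposite strands, and a further 23.8% of the RBM4 exon bases belong also to the readthrough gene RBM14-RBM4, so that their counts can depend on how shared reads were assigned. RBM27 shares 44.8% of its exon bases with a second annotated gene on its strand, and RBM12B shares 3323 exon bases with CIBAR1 on the other strand. The strandedness of the libraries was not stated. RBMX has a near-identical retrogene copy, RBMXL1, with which it can share reads.

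RBM3, the cold-induced member, was at 83.8 to 214 CPM in CHL1 and at 156 to 237 CPM in A375 and was not called in any comparison with DMSO (log2 fold changes of -0.14 to 0.52). In CHL1 the first library exceeded the second in the DMSO (151 and 93.1 CPM), 72-hour CDK4/6i (137 and 83.8 CPM) and PRMT5i (214 and 130 CPM) groups, and the CPM ranges of these groups overlapped. RBM20, which regulates titin splicing in heart, was low in both lines, at 3.41 to 7.84 CPM in CHL1 and 9.96 to 23.9 CPM in A375, and among the 6 comparisons with DMSO was called only in CHL1 after PRMT5i, a call lost in 3 of the 4 fits without a library and with the GC correction. RBM28, a ribosome biogenesis gene, and RBM22, part of the active spliceosome, were not called in any comparison with DMSO without the GC correction.

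Proteins that work with the members were counted from a list of 19 genes present in the table. Of these, 0 were called in CHL1 after 72 hours of CDK4/6i in edgeR (4.98% of all genes) and 2 in DESeq2 (8.07%). In edgeR 5 had an unadjusted p under 0.05. After 6 days 2 fell (16.6% of all genes called), BUD13 of the RES complex that also holds RBMX2 (-0.75 ± 0.20) and U2AF1, the 3′ splice site factor (-0.68 ± 0.16). In A375, 3 fell at 72 hours and none rose (13.3% of all genes called). The largest falls were in MAGOHB, a partner of RBM8A in the exon junction complex (-0.92 ± 0.20), and BUD13 (-0.85 ± 0.19). At 6 days in A375, 3 rose and 8 fell (43.1% of all genes called), with MAGOHB (-1.43 ± 0.19) and CBLL1, of the m6A writer that RBM15 recruits (-1.21 ± 0.21), moving most. After PRMT5i, 10 rose and 6 fell in CHL1 (54% of all genes called), led by CBLL1 (1.70 ± 0.20) and ZC3H13 of the same complex (1.33 ± 0.15). In A375, 0 were called by edgeR (2.61% of all genes) or DESeq2 (4.4%), with 0 at an unadjusted p under 0.05. After GC correction CBLL1 and ZC3H13 were at 0.63 and 0.65 in CHL1 after PRMT5i, both called, and at -0.38 and -0.76 in A375 after 6 days of CDK4/6i, both called.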

How the data were processed

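Poly-A RNA of CHL1 and A375 cells was sequenced in paired ends. Per the study's methods and the submitters' processing notes, the authors aligned reads with HISAT2 2.0.4 to GRCh37 and made counts per Ensembl gene with HTSeq at default settings (0.11.2 in the notes, a later version in the methods), then removed genes of low expression. The deposited values are whole-number counts with differing library totals, and were used as raw counts. The strandedness is not given in the sources used here.

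The RBM members, the lists and the alternatives were chosen with earlier results of these data known. Groups came from the labels. For each line all libraries (CHL1 8, A375 10) were fitted with TMM normalisation and edgeR 4.0.16 quasi-likelihood tests in R 4.3.3, and differences between lines with all 18. P-values were adjusted over 20705 genes (Benjamini-Hochberg, threshold 0.05). SE is the log2 fold change over the square root of F, the prior count was 0.125, and CPM used TMM-adjusted sizes of all 18 libraries. P-values measure the spread between the 2 libraries of a group, taken over all groups of a fit, and this spread may be technical. Groups outside a comparison thus enter its p-values. In the A375 fit these include the 6-day control, whose coefficient of variation between libraries was 0.315, against 0.0683 to 0.134 in the 72-hour groups. Counts cover reads without molecular identifiers.

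GC content was that of the Ensembl canonical transcript (GENCODE 44 on GRCh37) for 16006 genes, matched by symbol (14852) or older symbol (1154), and covered 86.4% of genes averaging 1 CPM or more. The correction was a loess offset per library (span 0.4). Alternatives were DESeq2 1.42.0, scaling by median ratios, a low-count filter (1 CPM in 2 libraries), the GC correction, other sets of libraries, a replicate block, the other A375 control and leaving out each library. Fits without the libraries with a GC trend were added after seeing the data. Genes named were up to 5 called rises and 5 called falls per comparison with no overlap and an average of 1 CPM or more, a fixed set of 13 members and the paralogue pairs, and up to 2 of the other genes per comparison. Other members were named after their values were seen. Counts were simulated for the CHL1 72-hour CDK4/6i comparison (20705 genes), with the other groups alike and no GC trend. Changes of 1 or 2 on the log2 scale, up or down, were set in genes averaging 1 CPM or more. The test called 169 of 200 changed genes with the correct sign, along with 18 unchanged ones, and called 0 where no gene was changed. Smaller changes, such as many of those reported here, were not simulated. Promoters are from RefSeq (GRCh38.p14), where 35 of 39 members had an entry.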

Additional observations from a re-analysis of the deposited data

Results flagged for a closer look

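The difference between CHL1 and A375 in the response to PRMT5i, tested as an interaction in the edgeR fit of all 18 libraries, passed for 19 members. As log2 fold change in CHL1 minus that in A375, the response was higher in CHL1 for RBM44 (2.14), RBM26 (1.87), RBM15 (1.39), RBM25 (1.33), RBM12B (1.22), RBM41 (1.22), RBM39 (1.06), RBM27 (1.01), RBM45 (0.80), RBM18 (0.74), RBM33 (0.65) and RBM6 (0.63). It was lower for RBM38 (-1.50), RBM42 (-1.50), RBM15B (-1.37), RBM8A (-1.34), RBM10 (-1.02), RBM19 (-0.86) and RBM23 (-0.72). The 2 CHL1 PRMT5i libraries carry the GC trend given above, while the A375 PRMT5i libraries had a smaller difference of the other sign. With the GC correction 6 of the 19 kept their call and direction.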

How the results depend on the processing

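The counts of members called kept within 1.5 times of the values above under every alternative not listed here, where a value could be given. Percentages in parentheses are the shares of all genes called in the same fit. For CDK4/6i at 72 hours in CHL1, 2 were called (4.98%). The GC correction gave 4 (14.7%), only the compared groups 7 (20.3%) and all 18 libraries 1 (4.6%). Fits without 1 library, which leave 1 in a group, gave fewer calls, also over all genes. At 6 days, 7 were called (16.6%), and each fit without 1 library gave fewer, also over all genes. For PRMT5i in CHL1 (26, 54%) the GC correction left 14 (28.8%). For CDK4/6i at 72 hours in A375 (3, 13.3%), median-of-ratios scaling gave 1 (12.8%) and the GC correction 10 (25.4%). Only the compared groups gave 12 (33.5%) and the 6 libraries of 72 hours 11 (31%). Fits without 1 library gave fewer, also over all genes. At 6 days (15, 43.1%) there were 9 with the 72-hour control (31.2%), and more without the second control library, also over all genes. For PRMT5i in A375 (0, 2.61%), the GC correction gave 2 (9.05%), only the compared groups 2 (8.99%) and the 6 libraries 3 (15.8%). For PRMT5i against CDK4/6i, CHL1 (31, 57.8%) gave 20 with the GC correction (42%). In A375 (0, 5.45%) that contrast gave 3 in DESeq2 (7.84%), 1 with the low-count filter (6.96%) and 8 with the GC correction (16.1%). It gave 1 among genes with a GC value (6.85%) and 1 with all 18 libraries (6.74%). Only the compared groups gave 13 (21.8%) and the 6 libraries 14 (22.1%). CHL1 at 6 days against 72 hours (0, 0.0145%) gave 0, except without the first 6-day library. The PRMT5i difference between the lines (19, 40.9%) gave 7 with the GC correction (21%).

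Signs turned mainly with the GC correction. In CHL1 after PRMT5i the corrected log2 fold changes were 0.32 for RBM10, 0.30 for RBM19, 0.14 for RBM38, 0.23 for RBM42, -0.01 for RBM43, -0.00 for RBM44 and -0.44 for RBMS3. In A375 at 6 days RBM25 was at 0.03, and for the PRMT5i difference between lines RBM10 was at 0.28, RBM18 at -0.29, RBM19 at 0.20 and RBM41 at -0.07. With the 72-hour control the A375 values at 6 days were 0.14 for RBM25, 0.10 for RBM26, -0.11 for RBM38, 0.48 for RBM41 and 0.01 for RBM43. With the 6-day A375 control, CHL1 minus A375 was 0.43 for RBM15B, -0.44 for RBM25, -0.38 for RBM41 and -0.15 for RBM48. The cause of these changes was not tested. Over the called members and all alternatives, 900 values kept sign and call, 165 lost the call and 27 turned.

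Replicate numbers are shared between groups, but nothing says that a number marks a batch or day, and only 2 numbers exist, so pairing was not assumed. Deviations of same-numbered libraries correlated at 0.144, 0.418 and 0.178 in the 3 pairs of A375 groups of 72 hours, and at -0.273 to 0.322 in the 5 pairs of CHL1 groups. In those A375 libraries the replicate block changed the counts. It gave 16 calls for CDK4/6i (42.3% of all genes), 15 for PRMT5i (29.5%) in place of 0, or of 3 in the 6 libraries without the block, and 21 between the drugs (34.6%), 20 of them higher after PRMT5i, in place of 0 or 14. With the GC correction as well it gave 19 (47.6%), 16 (34.4%) and 19 (40.3%). In CHL1 the block gave 2 calls at 72 hours of CDK4/6i (3.84%), 7 at 6 days (15.3%) and 25 for PRMT5i (53.9%), and with the GC correction 4 (16.2%), 12 (30.9%) and 18 (30.4%), with values of 0.32 for RBM10, 0.30 for RBM19, 0.14 for RBM38, 0.23 for RBM42, -0.01 for RBM43 and -0.42 for RBMS3 after PRMT5i.

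With 2 libraries per group, calls near the threshold rest on single libraries, and a smaller change would not be detectable. RBM34 and RBM11 had few reads in these libraries.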
